A study of Mus musculus with 3 samples.

Results

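Potassium channel genes were described across 3 sorted populations of mouse bone marrow cells. The genes were all rows of the normalized counts table whose symbol begins with Kcn, followed by family letters and a number, apart from 2 rows of 1 locus that are not analysed here. They numbered 92 of 23393 genes, and for 15 of the 92 the mean over the 3 libraries reached 50, the minimum set for computing ratios. That minimum was passed by 11951 genes in all. Cells of C57BL/6 mice were sorted from the LSK gate (lineage-negative, Sca-1-positive, c-Kit-positive), which holds blood stem cells and early progenitors. GFP+ HSCs were CD48- CD150+ with the Map17-GFP reporter on (genotype label Map17-GFP+), GFP- HSCs had the same surface gate with the reporter off (Map17-GFP-), and MPPs, multipotent progenitors, were CD48+ CD150- and Map17-GFP-. There was 1 library per population. The age and number of the mice, how the reporter was built and whether cells of several mice were pooled are not stated in the labels.

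Potassium channels are membrane proteins that let potassium ions leave or enter the cell down their gradient, and so set the resting membrane potential, cell volume and the electrical force that draws calcium into the cell. The genes fall into classes by structure: voltage-gated channels with their modifier and auxiliary subunits, calcium- or sodium-activated channels, inward rectifiers, and leak channels with tandem pore domains. In blood cells the best known members are Kcna3, which holds the membrane potential of lymphocytes, and Kcnn4, the calcium-activated Gardos channel of red cells, also used by activated lymphocytes.

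A level is the authors' normalized count of a gene in 1 library. With no replicates there was no spread to set a difference against. No test was made, and every difference described is a difference between single libraries. Levels summed to 25364232 to 26748600 per library after the authors' scaling, and the sequencing depth itself is unknown. The sort genes went the way of the gates: Slamf1, which encodes CD150, stood at 17 in MPPs against 2144 (GFP-) and 2219 (GFP+) in HSCs, and Cd48 at 7744, 168 and 64. Pdzk1ip1, the gene also called Map17, stood at 290, 3673 and 5659. Where 3 levels follow each other in this way, they are those of MPPs, GFP- HSCs and GFP+ HSCs in that order. In such bulk samples, fewer cells that express a gene and less RNA per cell cannot be told apart.

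The family was carried by few members. Levels of different genes were compared only per kilobase of the longest annotated transcript. On that scale Kcnk5, Kcnn4, Kcnab2, Kcna3 and Kcnk12 together made up 87.8% of all potassium channel transcripts in MPPs against 84.9% (GFP-) and 83.0% (GFP+) in HSCs. The make-up of these 5 differed between populations. Kcnk5 accounted for 8.24% of the family's summed level per kilobase in MPPs against 28.5% (GFP-) and 37.3% (GFP+) in HSCs. Kcnk12 accounted for 20.9%, 4.99% and 2.46%, and Kcna3 for 19.3%, 14.3% and 6.39%. Kcnn4, by contrast, stayed between 18.0% and 22.7%. The leading transcript of the family in MPPs was therefore Kcnab2, which encodes an auxiliary subunit, at 1458 per kilobase. In both HSC libraries it was the leak channel gene Kcnk5, at 1474 per kilobase in GFP- and 2008 in GFP+ HSCs. In MPPs, Kcnab2, Kcnk12, Kcna3 and Kcnn4 lay close together, between 1233 and 1458 per kilobase, and without replicates their order cannot be set against a spread.

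The sequences before the annotated starts of Kcnk5, Kcnk12 and Kcna3 are shown because these genes were high in opposite populations and each has a single start in the promoter table. They are RefSeq sequences of build GRCm38.p6, 250 bases up to the start, written 5′ to 3′ on the strand of the gene. Capitals mark matches, on either strand, to the E-box letters CANNTG or the ETS letters GGAAGT. For GATA factors the letters AGATAA were searched, and for AP-1 the letters TGACTCA. No 2 matches overlap in these windows. Kcnk5 lies on the minus strand (chr14:20181783-20182032), Kcnk12 on the minus strand (chr17:87797995-87798244) and Kcna3 on the plus strand (chr3:107035912-107036161).
Kcnk5: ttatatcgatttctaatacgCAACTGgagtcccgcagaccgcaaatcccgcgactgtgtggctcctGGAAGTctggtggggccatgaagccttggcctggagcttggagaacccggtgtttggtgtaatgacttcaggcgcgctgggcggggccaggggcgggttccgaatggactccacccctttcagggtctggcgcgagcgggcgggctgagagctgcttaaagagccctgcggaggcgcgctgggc
Kcnk12: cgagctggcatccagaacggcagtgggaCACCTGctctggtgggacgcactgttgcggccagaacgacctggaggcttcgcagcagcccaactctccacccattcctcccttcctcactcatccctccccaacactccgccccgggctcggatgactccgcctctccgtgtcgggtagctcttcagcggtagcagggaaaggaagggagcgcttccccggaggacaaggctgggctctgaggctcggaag
Kcna3: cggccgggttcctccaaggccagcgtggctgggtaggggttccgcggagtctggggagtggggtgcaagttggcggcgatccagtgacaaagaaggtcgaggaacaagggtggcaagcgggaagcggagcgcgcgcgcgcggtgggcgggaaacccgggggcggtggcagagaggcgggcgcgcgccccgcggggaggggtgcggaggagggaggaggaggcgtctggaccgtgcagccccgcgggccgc

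The Kcnk5 window held 1 E-box and 1 ETS match, the Kcnk12 window 1 E-box match, and the Kcna3 window no match to any of the 4 motifs. E-box letters occurred in 66.2% of 32851 promoter windows of the same length, ETS letters in 19.7%, GATA letters in 9.99% and AP-1 letters in 4.46%. All 3 windows were rich in the dinucleotide CG, with 19 in Kcnk5, 16 in Kcnk12 and 31 in Kcna3 against a median of 6 over all windows. A match to such short letters is a description of the sequence and not a binding site. Of the 15 genes past the minimum, 11 had an entry in the table.

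Among the tandem pore leak channels, Kcnk5 and Kcnk6 were higher in both HSC libraries and Kcnk12 was higher in MPPs. These channels conduct a background potassium current at rest. Of 14 genes of this class, 3 passed the minimum, and the summed level per kilobase was 2031 in MPPs against 1816 (GFP-) and 2236 (GFP+) in HSCs. The class total thus varied less than its members, which changed places. Kcnk5, a channel that opens in alkaline surroundings and takes part in volume regulation (chromosome 14, 20140057 to 20181782, GRCm38), stood at 1910 in MPPs against 5001 (GFP-) and 6810 (GFP+) in HSCs. It exceeded the MPP level 2.62-fold in the GFP- and 3.57-fold in the GFP+ fraction. Between the HSC fractions it was 1.36-fold higher in GFP+ cells. Kcnk6, a TWIK group channel (chromosome 7, 29221928 to 29232522), stood at 113 in MPPs against 276 (GFP-) and 304 (GFP+) in HSCs. It was 2.44-fold and 2.69-fold above MPPs, with the HSC fractions close together.

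Kcnk12, a THIK group channel subunit (chromosome 17, 87745821 to 87797994), ran the other way, at 2818 in MPPs against 509 (GFP-) and 261 (GFP+) in HSCs. Relative to MPPs it was 5.54-fold lower in the GFP- and 10.8-fold lower in the GFP+ fraction. Between the HSC fractions it was 1.95-fold lower in GFP+ cells, with a log2 ratio of -0.95, just short of the 2-fold rule. Its close relative Kcnk13, the other THIK gene, stood at 9 in MPPs against 0 (GFP-) and 5 (GFP+) in HSCs. Kcnk3, a TASK gene, was low throughout at 17, 28 and 49. The remaining leak channels had levels of at most 15.

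**Figure D1:**
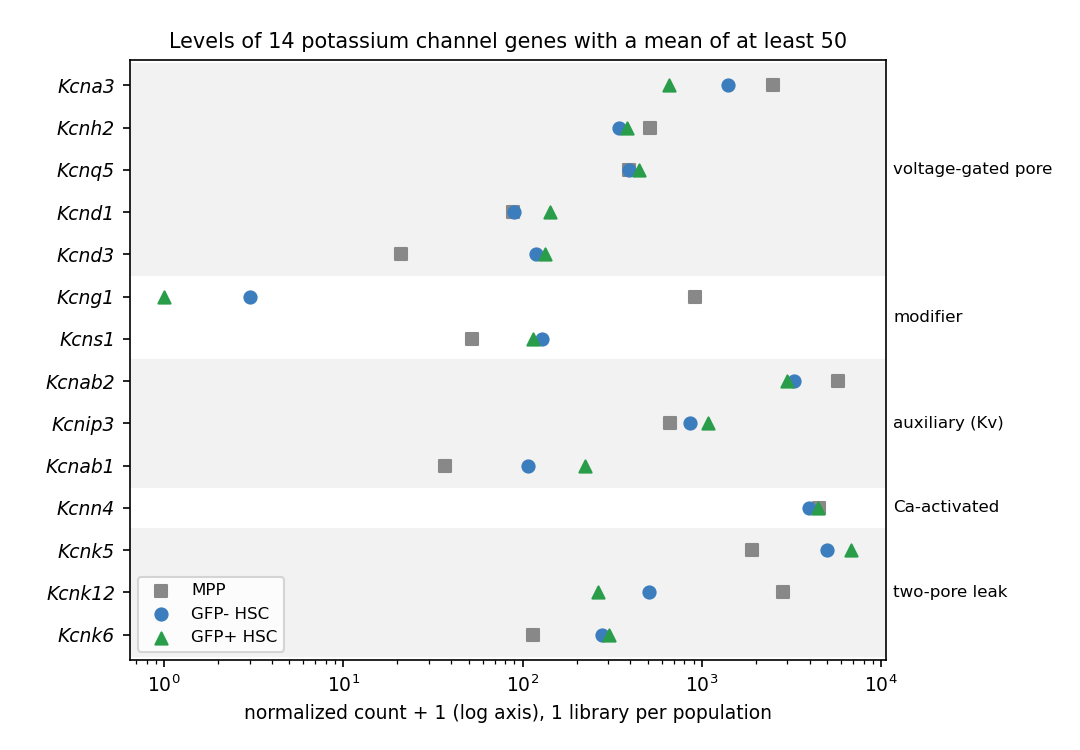
Levels of 14 potassium channel genes with a mean of at least 50, as normalized count plus 1 on a log axis. Each point is 1 library: grey squares MPPs, blue circles GFP- HSCs, green triangles GFP+ HSCs, and shading separates the classes named at the right. Kcng1, Kcnk12, Kcna3 and Kcnab2 lie highest in MPPs, whereas Kcnk5, Kcnab1 and Kcnd3 lie highest in GFP+ HSCs.

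Voltage-gated pore subunits open when the membrane depolarises. Of 29 genes in the class, 6 passed the minimum, and the summed level per kilobase was 1528 in MPPs against 945 (GFP-) and 571 (GFP+) in HSCs. That gradient followed Kcna3 (chromosome 3, 107036162 to 107038129), the lymphocyte channel, which stood at 2504 in MPPs against 1404 (GFP-) and 654 (GFP+) in HSCs. Kcna3 was 2.15-fold lower in GFP+ than in GFP- HSCs, and its log2 ratio of -1.10 stood at place 72 from the lowest of 11951 genes. In GFP+ HSCs it was 3.83-fold lower than in MPPs, and in GFP- HSCs 1.78-fold lower. The other Kcna genes had levels of at most 4 in every library.

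Kcnd1 and Kcnd3 encode pore subunits of the fast transient A-type current. Kcnd3 (chromosome 3, 105451890 to 105674002) stood at 20 in MPPs against 118 (GFP-) and 133 (GFP+) in HSCs, 5.90-fold and 6.65-fold above MPPs. An antisense gene, Kcnd3os (listed under an older symbol), shares 165 exon bases with it and had levels of 0, 6 and 8, and reads of the opposite strands cannot be told apart with this chemistry. Kcnab1 and Kcnq5 likewise share 201 and 237 exon bases with annotated genes on the opposite strand. Kcnd1 (chromosome X) stood at 88, 89 and 142, so it was level between MPPs and GFP- HSCs and 1.60-fold higher in GFP+ than in GFP- HSCs. The auxiliary genes of this current are described further on.

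The pore genes Kcnh2 and Kcnq5 were less than 2-fold apart in each comparison. Kcnh2, the ERG channel known from the repolarisation of the heart, stood at 513 in MPPs against 343 (GFP-) and 380 (GFP+) in HSCs. Kcnq5, which carries an M-type current in nerve cells, stood at 391, 391 and 447. Kcnb2 was listed at 0 in MPPs against 23 (GFP-) and 21 (GFP+) in HSCs.

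Modifier subunits form no channel alone and change the properties of the voltage-gated channels with which they assemble. Kcng1 (chromosome 2, 168260117 to 168281533) had a level of 909 in MPPs and of 2 in GFP- HSCs, and was listed at 0 in GFP+ HSCs. Its log2 ratios against MPPs, -7.03 and -7.51 on the scale of level plus 5, depend on the added constant: they were -8.24 and -9.83 with 1 added and -5.40 and -5.54 with 20. Kcng1 passed the minimum through its MPP level alone, so a separation of this kind was fixed by that choice. Kcng2, another member of the same subfamily, lay just outside the minimum with a mean of 48.3 and had the same order, at 90, 34 and 21. Kcns1, also a modifier, went the other way at 51 in MPPs against 128 (GFP-) and 114 (GFP+) in HSCs, 2.51-fold and 2.24-fold above MPPs. With the trend on mean level removed, its log2 ratios of 1.25 and 1.09 became 0.86 and 0.65, under 2-fold. Kcng3 did not take part in this order, at 12, 19 and 10.

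Auxiliary subunits bind to voltage-gated channels inside or beside the membrane and alter their gating or transport. Kcnab1 and Kcnab2 encode beta subunits that join Kcna channels, and their transcripts ran in opposite directions. Kcnab1 (chromosome 3, 64949212 to 65378225) stood at 36 in MPPs against 106 (GFP-) and 222 (GFP+) in HSCs. Relative to MPPs it was 2.94-fold higher in the GFP- and 6.17-fold higher in the GFP+ fraction. Between the fractions it was 2.09-fold higher in GFP+ HSCs, with a log2 ratio of 1.03 at place 39 from the highest of all genes. That call is marginal: with a pseudocount of 20 the log2 ratio was 0.94, and with the trend on mean level removed it was 0.95. Kcnab2 (chromosome 4, 152390744 to 152477549) stood at 5718, 3257 and 2987, 1.76-fold and 1.91-fold lower than in MPPs. Per kilobase, Kcnab2 exceeded Kcnab1 in every library, at 1458 against 8.22 in MPPs and at 762 against 50.7 in GFP+ HSCs. The third beta gene, Kcnab3, stood at 15, 30 and 37.

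Kcnip3 encodes calsenilin, a calcium-binding partner of Kcnd channels that is also known as the transcriptional repressor DREAM. Its levels were 663 in MPPs against 853 (GFP-) and 1080 (GFP+) in HSCs, with GFP+ HSCs 1.63-fold above MPPs. Kcnip4, of the same family, stood at 7, 24 and 28. The Kcne genes, which encode small single-pass subunits, were low. Kcne1l was listed at 0 in MPPs against 8 (GFP-) and 23 (GFP+) in HSCs, and Kcne3 stood at 14, 8 and 2.

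**Figure D2:**
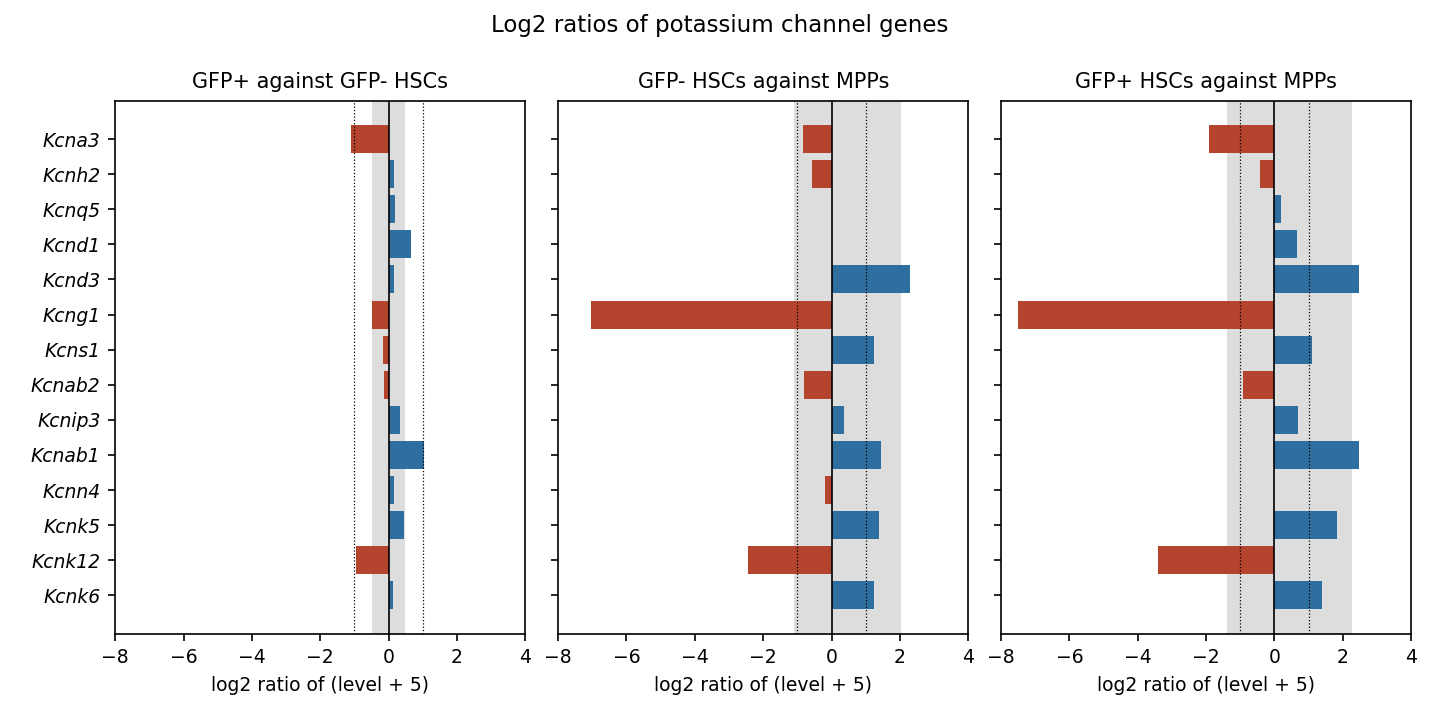
Log2 ratios of level plus 5 for 14 of the 15 genes in the 3 comparisons, with blue bars for higher and red bars for lower values. Dotted lines mark 2-fold and grey bands the range from percentile 5 to percentile 95 of 11951 genes. In GFP+ against GFP- HSCs Kcnab1 and Kcna3 pass 2-fold, and Kcng1 is drawn at -7.03 and -7.51 against MPPs, values that depend on the added constant.

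Calcium-activated channels were represented by Kcnn4, the Gardos channel (chromosome 7, 24369826 to 24385212). It was nearly level, at 4485 in MPPs against 3958 (GFP-) and 4437 (GFP+) in HSCs, a range of 1.13-fold. Per kilobase it held place 4 of the 15 in MPPs and place 2 in both HSC libraries. Of the other 7 genes that encode activated pores, Kcnn1 was highest at 36, 18 and 15, and the large-conductance gene Kcnma1 was listed at 0 in all 3 libraries. The 4 Kcnmb genes, its auxiliary subunits, had summed levels of 4, 3 and 10.

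Inward rectifiers pass potassium more easily into than out of the cell, and 0 of their 15 genes passed the minimum. They made up 0.395% of the family's summed level per kilobase in MPPs against 0.852% (GFP-) and 0.644% (GFP+) in HSCs. Kcnj5 stood at 6, 58 and 39, Kcnj2 at 39, 36 and 12, and Kcnj6 at 7, 30 and 17. Kcnj5 and Kcnj6 encode subunits of channels opened by G proteins, and both were lower in MPPs than in either HSC library.

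**Figure D3:**
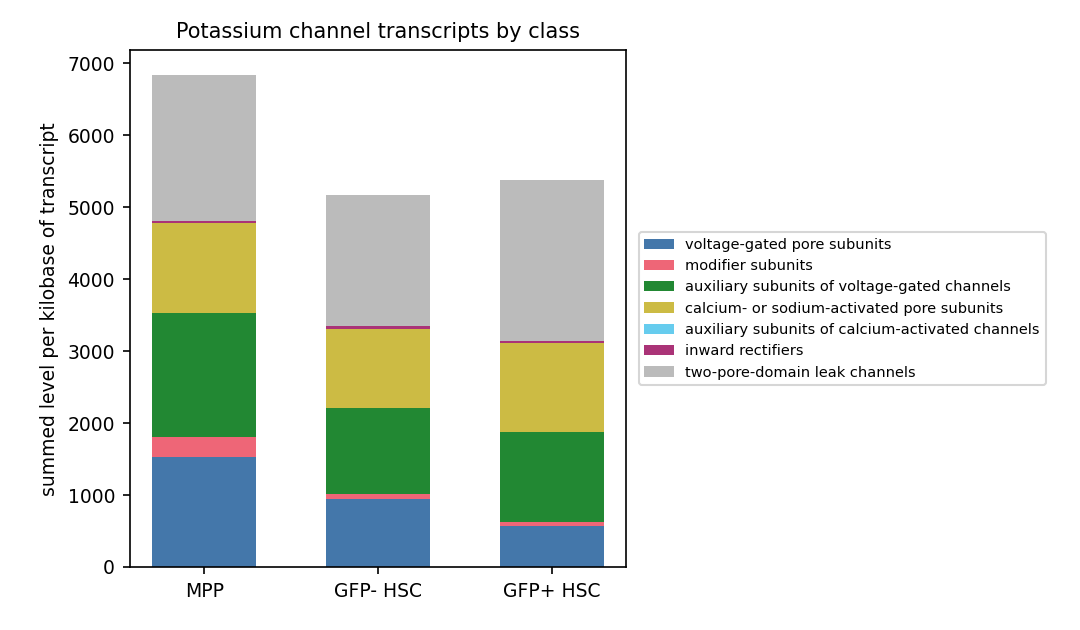
Summed level per kilobase of transcript for the potassium channel classes in each library, stacked by class, with 1 library per bar. The voltage-gated pore subunits take 22.3% of the bar in MPPs against 18.3% (GFP-) and 10.6% (GFP+) in HSCs, and the tandem pore leak channels 29.7%, 35.1% and 41.5%.

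Below the minimum mean were 77 genes, of which 21 were listed at 0 in all libraries, 44 had levels of at most 19 and 12 reached 20 or more. Kcng2, with a mean of 48.3, lay just outside the minimum and Kcnd3, with a mean of 90.3, just inside. Of the 12 genes, 9 were higher in both HSC libraries than in MPPs, and 3 (Kcng2, Kcnj2 and Kcnn1) were lower in both. These levels are low and carry no stated error. Summed over the 77 genes, levels were 334 in MPPs against 479 (GFP-) and 458 (GFP+) in HSCs. Of the 92 genes, 46 had any level above 0 in MPPs against 55 (GFP-) and 59 (GFP+) in HSCs. A listed 0 need not mean that the transcript was absent.

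**Figure D4:**
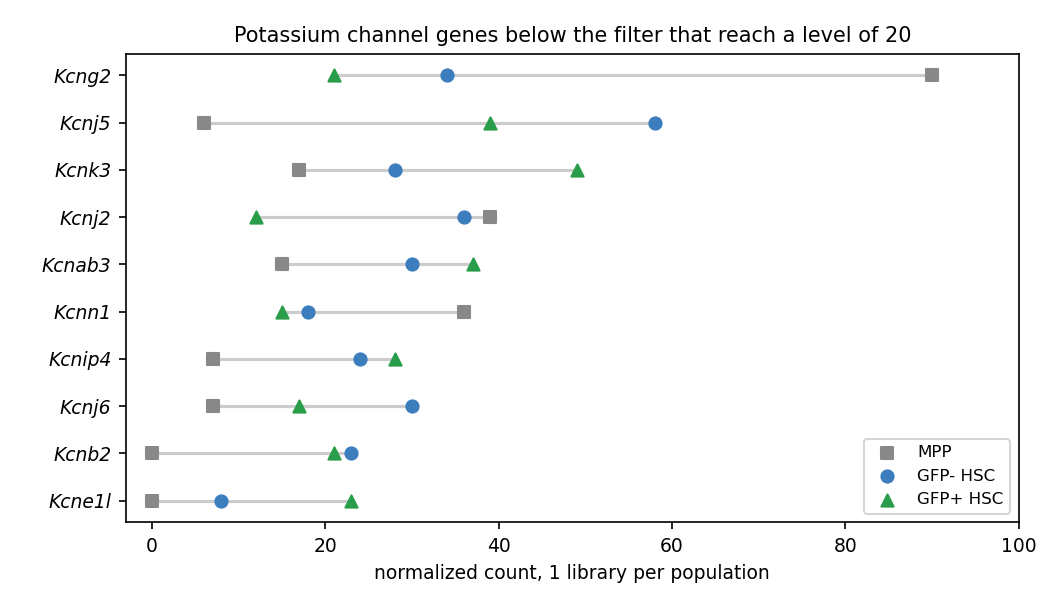
Levels of 10 potassium channel genes below the minimum mean that reach 20 in at least 1 library, in normalized counts on a linear axis. Grey squares are MPPs, blue circles GFP- HSCs and green triangles GFP+ HSCs. MPPs hold the lowest level in 7 of the 10 genes, and Kcng2 has the highest level, 90 in MPPs.

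Counted by the 2-fold rule, GFP- HSCs had 5 of 15 members higher than MPPs (Kcnk5, Kcnk6, Kcnab1, Kcns1 and Kcnd3), where 11.6% of all genes were called in that direction. Lower were 2 of 15 (Kcnk12 and Kcng1), against 5.53% of all genes. For GFP+ HSCs against MPPs the same 5 were higher, against 13.7% of all genes, and 3 (Kcna3 in addition) were lower, against 8.61%. Between the HSC fractions 1 of 15 was higher in GFP+ cells (Kcnab1, against 0.41% of all genes) and 1 was lower (Kcna3, against 0.87%). The comparisons share libraries and are not independent. Members that pass the minimum through 1 high library, as Kcng1 does, had to differ. Kcnab1 and Kcnd3, at 36 and 20 in MPPs, passed it through their HSC levels, and both are among the 5 higher. A level of at least 50 in every library was held by 12 of the 15. Of these 12, 3 were higher than MPPs in each HSC fraction, beside 7.6% (GFP-) and 9.67% (GFP+) of all genes. Lower were 1 (GFP-) and 2 (GFP+), beside 4.32% and 7.6%. The median log2 ratio of the 15 was 0.15 for GFP+ against GFP- HSCs, beside 0.01 over all genes, 0.02 for GFP- HSCs against MPPs, beside -0.01, and 0.47 for GFP+ HSCs against MPPs, beside 0.01. Members with high and low ratios thus offset each other in the comparison of GFP- HSCs with MPPs. The median size of the log2 ratio without its sign was 0.83 there, against 0.37 over all genes.

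Neighbouring genes on the chromosome were read beside the members at least 2-fold apart, a comparison chosen after the values were seen. Of the 16 nearest genes past the minimum on either side of the 8 members at least 2-fold apart between GFP+ HSCs and MPPs, 4 were at least 2-fold apart in the direction of their member, 2 in the opposite direction and 10 less than 2-fold apart. Of all genes, 13.7% were at least 2-fold higher and 8.61% lower in that comparison. The 2 opposite were Slpi beside Kcns1, at 752, 29 and 37, and Nfatc2 beside Kcng1, at 1586, 2647 and 3275. The nearest genes that passed the minimum on either side of Kcnk5 were Saysd1, at 397, 474 and 543, and Nudt13, at 329, 500 and 507, both less than 2-fold apart. Beside Kcna3, AI504432 lay 1375 bases away and stood at 313, 176 and 118. On its other side Cd53, a tetraspanin gene of white blood cells 246013 bases away, stood at 8503, 794 and 406. Both had the order of Kcna3, whereas the family members next to it, Kcna2 and Kcna10, stood at 0, 3 and 0 and at 0 in all libraries. Catsperg1, 6339 bases from Kcnk6, stood at 8, 87 and 109, and on the other side Yif1b at 2732, 1899 and 1732. Cttnbp2nl, 398744 bases from Kcnd3, stood at 29, 165 and 160.

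Other genes of potassium and ion transport were read from 6 lists. The sodium-potassium pump, which builds the potassium gradient that the channels use, was lower in HSCs: of 6 genes past the minimum, 2 were at least 2-fold lower and 0 higher in GFP- HSCs than in MPPs, and 4 were lower in GFP+ HSCs. Of all genes, 5.53% and 8.61% were lower by this rule. Of the beta subunits, which carry the pump to the membrane, Atp1b1 stood at 361, 63 and 87, Atp1b2 at 182, 135 and 44, and Atp1b3 at 6862, 3874 and 3226. The list's median log2 ratio was -0.65 for GFP- HSCs and -1.51 for GFP+ HSCs against MPPs, beside medians of -0.01 and 0.01 over all genes.

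Of 11 cation-chloride cotransporters and their kinases, 2 were at least 2-fold higher and 1 lower in GFP- HSCs than in MPPs, beside 11.6% and 5.53% of all genes, and their median log2 ratio was 0.06. Against MPPs, GFP+ HSCs had 4 higher and 1 lower, beside 13.7% and 8.61% of all genes, with a median of 0.19. Slc12a2, which brings sodium, potassium and chloride into the cell, stood at 747, 1831 and 2150. The kinase gene Sgk1 stood at 563, 1319 and 1322, its relative Sgk3 at 6550, 2600 and 2765, and Wnk4 at 28, 50 and 73. Among channel partners and other potassium channels, 1 of 11 was higher and 1 lower in both comparisons with MPPs, beside the same shares of all genes. Medians were 0.12 for GFP- and -0.15 for GFP+ HSCs. Calm3, 1 of the calmodulin genes whose product is the calcium sensor of Kcnn channels, stood at 5809, 2267 and 2051. Tmem38a, a potassium-permeable channel of the endoplasmic reticulum, stood at 157, 334 and 415, its relative Tmem38b at 306, 442 and 504, and the kinase subunit Csnk2b at 2401, 1543 and 1341.

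Calcium entry channels had 4 of 22 members at least 2-fold higher and 2 lower in GFP- HSCs than in MPPs, with a median of 0.13, where 11.6% of all genes were higher and 5.53% lower. In GFP+ HSCs the counts were again 4 and 2, with a median of 0.22, where 13.7% of all genes were higher and 8.61% lower. Trpc6, a cation channel opened by diacylglycerol, stood at 154 in MPPs against 3159 (GFP-) and 3849 (GFP+) in HSCs. Trpc1 stood at 5, 118 and 123 and the ATP-gated channel gene P2rx1 at 468, 2002 and 2185. Trpm2 ran against them at 158, 45 and 10. Chloride and anion channels had 4 of 19 higher and 2 lower in GFP- HSCs, with a median of 0.02, beside 11.6% and 5.53% of all genes. In GFP+ HSCs 3 were higher and 1 lower, with a median of 0.03, beside 13.7% and 8.61% of all genes. Among them were Cftr at 3, 145 and 163, Ttyh2 at 474, 72 and 32, Clcn2 at 199, 451 and 566 and the volume-regulated subunit Lrrc8a at 423, 888 and 965. Of 14 voltage-gated sodium channel genes, 1 passed the minimum. Between the HSC fractions, 0 of the 70 genes of the 6 lists past the minimum were at least 2-fold higher in GFP+ cells, where 0.41% of all genes were. Lower were 3 (Atp1b2, Trpm2 and Ttyh2), where 0.87% of all genes were.

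**Figure D5:**
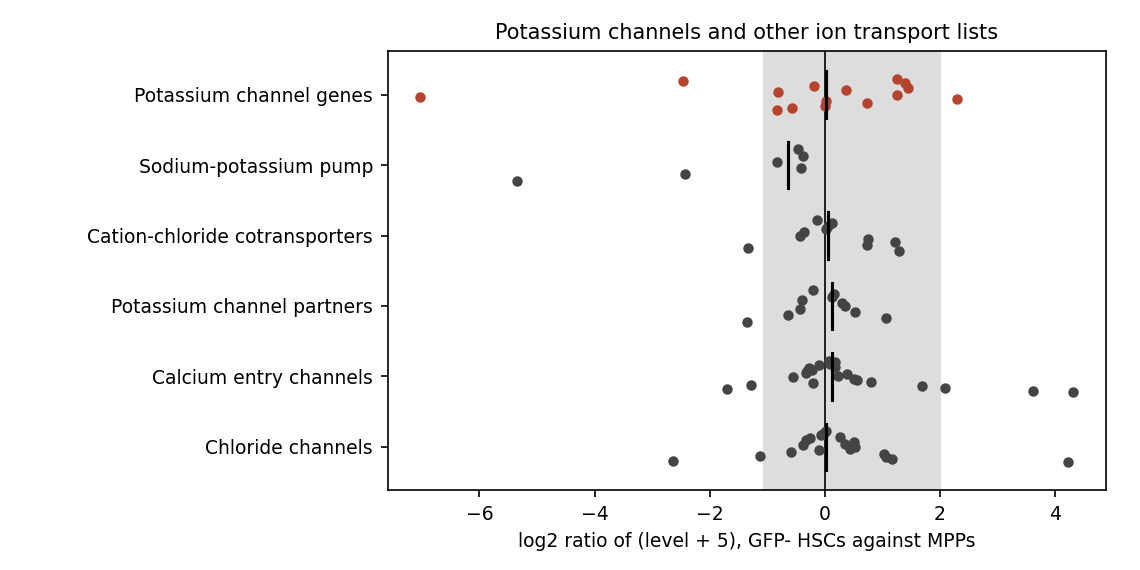
Log2 ratios of level plus 5 for GFP- HSCs against MPPs in the potassium channel genes (red) and 5 other ion transport lists (grey). Each point is a gene with a mean of at least 50, the vertical bars are medians, and the grey band is the range from percentile 5 to percentile 95 of 11951 genes. The sodium-potassium pump has a median of -0.65, the potassium channel genes of 0.02.

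Markers of other blood cells differed between the same populations. The 15 lymphoid progenitor, B and T cell genes summed to 24689 in MPPs against 1284 (GFP-) and 1375 (GFP+) in HSCs, with 20577 of the MPP sum from Dntt. Of the 15, 9 reached 50 in MPPs and 3 did so in each HSC library, while 6 were at 0 in each HSC library, among them Pax5, Ms4a1, Cd3e and Cd3g. The 13 myeloid genes summed to 178489, 13448 and 13983, with 135409 of the MPP sum from Mpo. The 10 dendritic cell genes summed to 46573, 12152 and 15030, with 19467 of the MPP sum from Flt3. The lymphoid, myeloid and dendritic lists were high in MPPs, as Kcng1, Kcnk12 and Kcna3 were, with Itgax at 0 in both HSC libraries. Between the HSC fractions the sums of these lists were higher in GFP+ cells. Their genes did not all follow the sums. Flt3 and Dntt were lower there, as Kcnk12 and Kcna3 were, and Mpo was nearly level. The part of these lists in those results was not tested. The 10 megakaryocyte and platelet genes summed to 5533 in MPPs against 45089 (GFP-) and 50273 (GFP+) in HSCs, high where Kcnk5, Kcnk6, Kcnab1 and Kcnd3 were high, and their part was not tested either. Erythroid genes summed to 5762, 5809 and 3328, with the globin genes Hbb-b1 and Hba-a1 at 0 throughout. The 10 mast cell, basophil and eosinophil genes summed to 1500, 305 and 52, in the order of Kcna3 and Kcnk12. Stromal and endothelial genes summed to 7452, 7633 and 8410. The 10 neuron and glia genes summed to 4371, 5664 and 6540. Of these 10, 2 passed the minimum and 2 reached 50 in each library, while the neuronal genes Snap25, Syt1 and Rbfox3 had levels of at most 3.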

How the data were processed

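RNA of 3 sorted populations was profiled with 1 library each. Per the labels' protocols, cDNA was made with a SMART-seq v4 kit for low input. It amplifies full-length transcripts by PCR, adds no molecular identifiers and keeps no strand. The authors deposited whole-number normalized counts, taken here as a score because no size factors accompany them and whole reads could not be derived. STAR, DESeq2 and mm10 are named per the submitters' processing notes; their versions, the annotation and the counting tool are not given there. Depth is unknown, so no counting interval was computed.

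Of 23420 rows, 27 held a date in place of a symbol and were left out. Ratios are log2 of (level + 5) in both libraries, for genes with a mean of at least 50, which understates differences of low genes. Printed folds are ratios of the levels themselves. With 1 library per group no test was made, and 2-fold counts stand beside those of all genes. Levels per kilobase used each symbol's longest transcript in GENCODE M21, which all 92 members have. Coordinates are RefSeq's on GRCm38, the assembly of mm10. Members, gene lists and rules were chosen with earlier results of these data known. Some genes are counted but not reported here by name. Otherwise, named were all members past the minimum, members below it with a level of at least 20, up to 4 genes of each pathway list with the largest ratios, and 3 sort genes. Other genes, such as Kcnk13, Kcng3, Kcnma1 and the chromosomal neighbours, were named after their values were seen. The calculation was tested on simulated data. Alternatives were other pseudocounts, minimum levels, scalings, fold thresholds and removal of trends on level or on transcript length and GC content. Calculations ran in Python 3.11.15 with pandas 2.3.3 and numpy 2.4.6, lowess fits in statsmodels 0.14.6 and plots in matplotlib 3.10.9.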

Additional observations from a re-analysis of the deposited data

How the results depend on the processing

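Of 470 log2 ratios of single members under the alternatives, 0 of those at least 2-fold apart changed direction. Values that moved by less than 0.14 (the median size of the log2 ratio between the HSC fractions over all genes, used because there are no replicates) numbered 437, and 33 moved further. Alternative minimum levels only choose which genes are kept, so single ratios could not move or change direction under them. Those values are among the 437. The 2-fold call was lost by Kcns1 against MPPs with the trend on mean level removed (log2 ratios 0.86 for GFP- and 0.65 for GFP+ HSCs) and with a pseudocount of 20 for GFP+ HSCs (0.92), and by Kcnab1 between the HSC fractions under the same 2 settings. With a pseudocount of 1, Kcng1 passed the rule between the fractions at -1.58, on levels of 0 and 2, and against MPPs its log2 ratios were -8.24 and -9.83, beside -5.40 and -5.54 with a pseudocount of 20. Kcnab2 passed it for GFP+ HSCs against MPPs at -1.03 after removal of the length and GC trend.

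Counts are given as higher and lower, and medians on the log2 scale. For GFP+ against GFP- HSCs (1 and 1, median 0.15), 2 were lower with a pseudocount of 1 (0.979% of all genes). With a pseudocount of 20, 0 were higher (0.192% of all genes). Also 0 were higher with a minimum mean of 200 (0.0875%), with the level trend removed (0.268%) and with at least 50 in every library (0.0722%). The counts were 2 and 2 with a minimum mean of 10 and 5 and 2 with no minimum, both with a median of 0 (all genes 1.21% and 1.43%, and 2.11% and 2.14%), 0 and 0 at 4-fold (0.0335% and 0.0586%), and 2 and 2 at 1.5-fold (2.5% and 3.05%). For GFP- HSCs against MPPs (5 and 2, median 0.02), 12 of 29 were higher (14.5% of all genes) and the median was 0.58 (0.016 over all genes) with a minimum mean of 10. With a minimum mean of 200, 2 of 10 were higher (8.3% of all genes) and the median was -0.38 (-0.038). Without a minimum the counts were 16 and 7 of 71 (13.8% and 6.96% of all genes), median 0.26 (0.0047). At 4-fold 1 was higher (5.04% of all genes), at 1.5-fold 4 were lower (13.4%), and with a level of at least 50 in every library the counts were 3 and 1 of 12 (7.6% and 4.32% of all genes). For GFP+ HSCs against MPPs (5 and 3, median 0.47), the counts were 13 and 6 of 29 (16.7% and 9.6% of all genes; median 0.70, over all genes 0.038) with a minimum mean of 10 and 21 and 10 of 71 (15.7% and 9.36%; median 0.26, over all genes 0.021) without one. With a minimum mean of 200, 2 of 10 were higher (10.2% of all genes) and the median was -0.22 (-0.022). The median was 0.096 with the level trend removed, 0.18 with that on length and GC content removed, and 0.33 with a level of at least 50 in every library, where 3 of 12 were higher (9.67% of all genes), or in 1 of the libraries compared. At 4-fold 2 were higher (5.87% of all genes). Other minimum levels change the number of genes counted, from 10 to 71. The filters on single libraries were added after the data were seen. Depth is unknown, so levels under 50 carry no stated error.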
